A study of Mus musculus with 2 samples.

Results

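The miRNA genes Mir322, Mir503, Mir351, Mir542 and Mir450b lie in 1 cluster on the minus strand of the mouse X chromosome. They were picked by symbol and shared locus, with earlier results of these data known, and all 5 were found among the 1973 miRNA genes counted. The counts come from small RNA sequencing of whole hearts of B6NCrl mouse embryos at day 15.5, healthy and with no treatment named. Replicate 1 was made from 78 pooled embryos and replicate 2 from 62, males and females together. There is 1 group and no control, so each value below describes this tissue at this age, and each comparison is between members or between the pools. In whole tissue, fewer cells of a type and less RNA per cell cannot be told apart.

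A miRNA is cut from the stem of a folded precursor, the hairpin, and its bases 2 to 8, the seed, do most of the pairing with target mRNAs. miRNAs with the same seed can therefore act on many of the same mRNAs. Mir322 is the mouse counterpart of human MIR424, and with Mir503 it is known for lowering cell cycle regulators such as cyclins and the phosphatase Cdc25a when muscle precursors stop dividing. The pair is also known for favouring the heart muscle fate in early mesoderm. Mir351 carries the seed of the Mir125 family, the vertebrate relatives of the worm developmental timing gene lin-4. Mir542 is known for targeting the mitosis and survival gene Birc5.

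The mature sequences from RefSeq (GRCm38) are shown first because they decide which members can share targets and which can be counted apart. All 5 members matched, with 10 mature entries. The 5p sequences are printed 5′ to 3′ with the seed in capitals, and for Mir542 and Mir450b the 3p sequence is added.
miR-322-5p: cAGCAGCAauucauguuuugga
miR-503-5p: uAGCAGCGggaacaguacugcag
miR-351-5p: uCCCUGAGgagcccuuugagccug
miR-542-5p: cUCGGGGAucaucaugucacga
miR-542-3p: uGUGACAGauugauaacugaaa
miR-450b-5p: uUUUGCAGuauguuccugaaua
miR-450b-3p: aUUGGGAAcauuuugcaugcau
Relatives outside the 5 members are given for comparison, in the same form.
miR-16-5p: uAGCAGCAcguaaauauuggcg
miR-15a-5p: uAGCAGCAcauaaugguuugug
miR-125a-5p: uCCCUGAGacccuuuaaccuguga
miR-450a-5p: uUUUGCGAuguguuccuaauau
miR-450a-1-3p: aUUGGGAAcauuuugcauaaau

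Mir322 had the full seed of miR-16-5p and miR-15a-5p, while Mir503 matched it only over bases 2 to 7. Counting from 1 at the 5′ end, miR-322-5p and miR-503-5p differed in their first 8 bases by C1U and A8G (miR-322-5p first). The longest stretch common to miR-322-5p and miR-503-5p was 6 bases. miR-351-5p was identical to miR-125a-5p over bases 1 to 8, and 10 of 24 positions were the same overall. miR-450b-3p shared its first 18 bases with miR-450a-1-3p, a product of the neighbouring gene Mir450-1.

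The hairpin of Mir322 is shown whole, with both mature arms in capitals, because the deposited counts add up all reads of a hairpin and do not separate its arms.
Mir322 hairpin: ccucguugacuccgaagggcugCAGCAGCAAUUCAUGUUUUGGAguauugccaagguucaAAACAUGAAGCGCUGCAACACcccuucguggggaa
It is 95 bases long and lies at chrX:53054255-53054349 (GRCm38, minus strand).

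The cluster, with its neighbours Mir450-1 and Mir450-2, covered 6353 bases, from 53047997 to 53054349 of chromosome X. In the direction of transcription Mir322 (ENSMUSG00000065418.1) comes first. Mir503 (ENSMUSG00000076122.1, 53053984 to 53054054) follows after a gap of 200 bases, and Mir351 (ENSMUSG00000065503.1, 53053255 to 53053353) after a further 630. Mir542 (ENSMUSG00000076140.1, 53049403 to 53049487) stands apart, 3767 bases beyond Mir351. Mir450-2 and Mir450-1 come next, and Mir450b (ENSMUSG00000076050.1, 53047997 to 53048078) closes the cluster. In the GENCODE M21 annotation no gene other than the miRNA genes overlapped a member. The noncoding gene C430049B03Rik ended 696 bases upstream of Mir322, and the lincRNA Gm28730 lay between Mir351 and Mir542, both on the minus strand. In RefSeq, where it is also named Hrtlincrx, C430049B03Rik runs from 53053112 to 53057190 and so spans Mir351, Mir503 and Mir322, but not Mir542 or Mir450b.

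Mir322 ranked 3 among the counted miRNA genes in each library. Ranks cover only reads that match 1 place. Multiply matching reads made up 33.0% of replicate 1 and 30.1% of replicate 2 and were not assigned to genes. Muscle miRNAs with near-identical copies had few counts, such as Mir1a-1 with 3 and 4 and Mir133a-1 with 5 and 7, and the rank of Mir322 could be lower if such reads were counted. Levels are counts per 1000000 counts on the gene's strand (CPM), and ± is the SD over both libraries (n = 2). Mir322 had 278858 counts in replicate 1 (81074 CPM) and 423173 in replicate 2 (72546 CPM), averaging 76810 ± 6030 CPM. Its share of all counts was 8.11% in replicate 1 (exact Clopper-Pearson 95% interval 8.08% to 8.14%) and 7.25% in replicate 2 (7.23% to 7.28%). The intervals cover counting error only and did not overlap, with replicate 1 the higher.

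Mir503, the partner of Mir322 in the cell cycle, was far lower, and its hairpin is the nearest to that of Mir322. Mir503 had 5585 counts (1624 CPM) in replicate 1 and 10471 (1795 CPM) in replicate 2, averaging 1709 ± 121 CPM and rank 66 in each library. Mir322 counts exceeded those of Mir503 by 49.9 times in replicate 1 and 40.4 times in replicate 2. Since different sequences can enter a library with different ease, such ratios describe reads and not molecules.

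Mir351, the member with the Mir125 seed, came second in the cluster. It had 69704 counts (20266 CPM) in replicate 1 and 139374 (23893 CPM) in replicate 2, averaging 22080 ± 2565 CPM, and ranked 12 and 11. Here replicate 2 was the higher, opposite to Mir322.

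Mir542 and Mir450b, the members farthest downstream, were lower than Mir322 and Mir351. Mir542 had 8601 counts (2501 CPM) in replicate 1 and 13875 (2379 CPM) in replicate 2, averaging 2440 ± 86.3 CPM at ranks 45 and 52. Mir450b had 2679 counts (779 CPM) and 3894 (668 CPM), a mean of 723 ± 78.7 CPM at ranks 83 and 99. Both were higher in replicate 1 on the CPM scale, Mir542 only slightly.

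The neighbours Mir450-1 and Mir450-2 had the fewest counts of the cluster. Mir450-1 had 271 and 429 counts in replicates 1 and 2 (76.2 ± 3.71 CPM), and Mir450-2 had 136 and 171 (34.4 ± 7.23 CPM). Both hairpins give the same miR-450a-5p, printed above, and they share a stretch of 20 bases. A read that matches several places is in no gene count, so the counts of both can fall short of their level. None of the 5 members shared a stretch of 20 bases with another annotated miRNA hairpin on either strand.

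**Figure D1:**
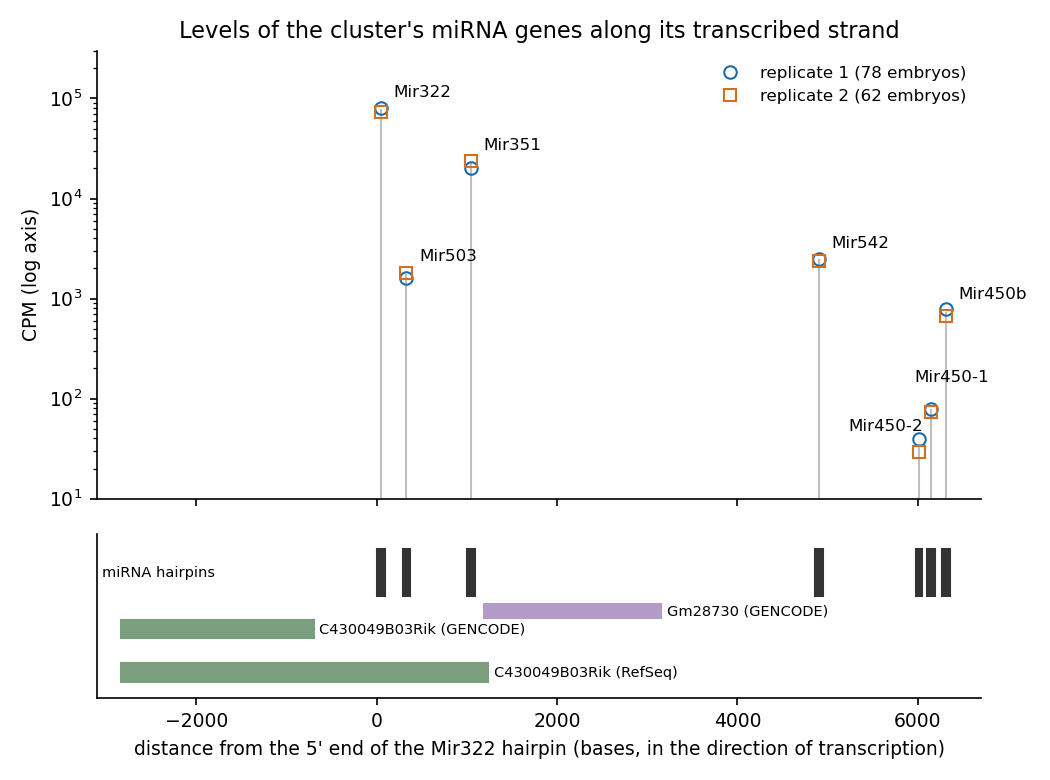
Level in CPM (log axis) of the 7 miRNA genes of the cluster in each library (circles, replicate 1; squares, replicate 2; grey stems reach the mean), above a map of the hairpins and noncoding genes by distance in bases from the 5' end of the Mir322 hairpin. Mir322 (mean 76810 CPM) and Mir351 (22080 CPM) stand highest, with Mir503 (1709 CPM) between them on the strand.

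The order of levels was the same in both libraries, Mir322, Mir351, Mir542, Mir503 and Mir450b. No neighbours in this order overlapped between libraries. The closest were Mir542 and Mir503, whose log2 ratio of counts (Mir503 to Mir542) was -0.62 in replicate 1 and -0.41 in replicate 2 (-0.51 ± 0.15). The other steps were larger, with log2 ratios of 1.80 ± 0.28 for Mir322 to Mir351, 3.17 ± 0.22 for Mir351 to Mir542 and 1.24 ± 0.26 for Mir503 to Mir450b. From Mir322 to Mir450b the span was 6.73 ± 0.04 on the log2 scale. The order of levels was not the order along the strand, since Mir503 ranked below Mir351 and Mir542, which lie farther downstream.

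Together the 5 members added up to 106243 CPM in replicate 1 against 101281 in replicate 2, which is 10.4% ± 0.351 of the counts (n = 2). Without Mir322 and Mir351 the other 3 members added up to 4903 and 4841 CPM (4872 ± 43.8). Mir322 made up 76.3% of the counts of all 5 members in replicate 1 (exact 95% interval 76.2% to 76.4%) and 71.6% in replicate 2 (71.5% to 71.7%). Mir351 made up 19.1% (18.9% to 19.2%) and 23.6% (23.5% to 23.7%). Mir542 gave 2.35% in each library, the steadiest share of the 5. Mir503 gave 1.53% and 1.77%, and Mir450b 0.733% and 0.659%. Replicate 1 thus held relatively more Mir322 and replicate 2 relatively more Mir351.

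**Figure D2:**
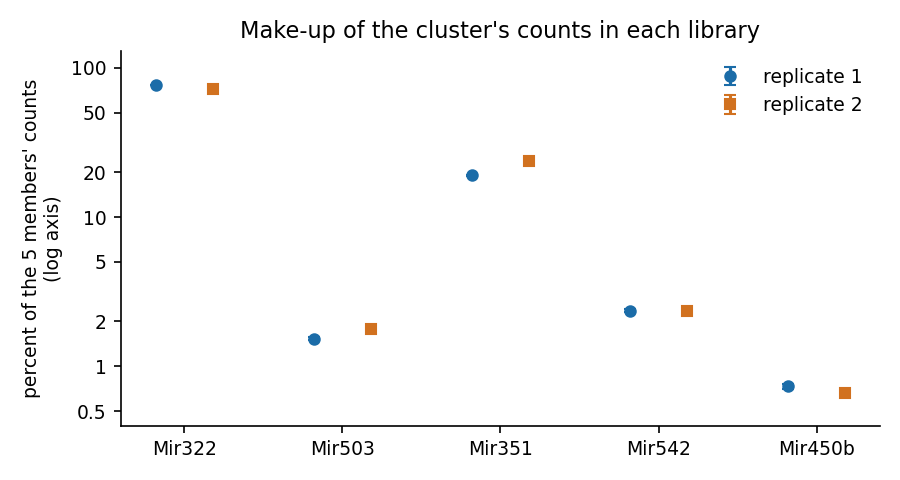
Percent of the 5 members' summed counts (log axis) held by each member in replicate 1 (circles) and replicate 2 (squares); bars are exact 95% intervals of counting error, mostly smaller than the symbols. Mir322 holds 76.3% and 71.6% and Mir351 19.1% and 23.6% in replicates 1 and 2, while Mir542 holds 2.35% in each.

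Mir322 held most counts of the genes with its seed. Of the 10 counted genes with its bases 2 to 8, 6 were detected, here meaning at least 10 counts in both libraries, and the group added up to 81931 ± 6061 CPM (n = 2). Mir322 gave 94.0% of that sum in replicate 1 and 93.4% in replicate 2. Mir15a, known with Mir16-1 as a brake on cell division, had 2130 and 2403 CPM in replicates 1 and 2. Mir16-1 had 1733 and 1380 CPM, Mir15b 636 and 765 CPM, and Mir195a 378 and 353 CPM. Mir16-2 had 265 and 197 CPM. Mir16-1 and Mir16-2 yield the same mature miR-16-5p and have 20 bases in common. Reads that fit both are missing from their counts, and the share of Mir322 can be too high for that. Mir6342, Mir6353, Mir6419 and Mir195b had 0 counts in both libraries. A count of 0 allows up to 3 counts, or 0.872 CPM in replicate 1 and 0.514 CPM in replicate 2. Mir497, whose miR-497a-5p has this seed too, has no count of its own here. It lies inside Mir497b on the other strand (chromosome 11), and opposite Mir497b there were 1462 counts in replicate 1 and 2834 in replicate 2, with 1 and 0 on its own strand. Whether all of these are reads of Mir497 was not tested, and they are in none of the sums. With bases 2 to 7 only, Mir503 joins the group. It lay below Mir15a in both libraries, below Mir16-1 in replicate 1 and above it in replicate 2, and gave 1.85% and 2.26% of the wider group.

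Mir351 likewise held most counts of the genes with its seed. The group of 6 counted genes reached 25974 ± 3152 CPM (n = 2), of which Mir351 gave 85.3% in replicate 1 and 84.7% in replicate 2. Mir125a had 2724 and 3521 CPM, Mir125b-2 had 493 and 440 CPM, and Mir125b-1 had 262 and 348 CPM. Mir125b-1 and Mir125b-2 also have 20 bases in common, with the same limit. Mir6367 and Mir6394 had 0 counts. For all seed groups, only counted genes matched to a RefSeq mature sequence were searched. Among these no other gene had the seed of miR-542-3p or of miR-450b-5p, and the seed of miR-542-5p recurred only in Mir6966, with 1 and 2 counts. The seed of miR-450b-3p recurred in Mir450-1 and in Mir6352, which had 0 counts. For every seed group the counts are of whole hairpins, so a share of a group is one of its genes' counts and not of the arm with the seed.

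**Figure D3:**
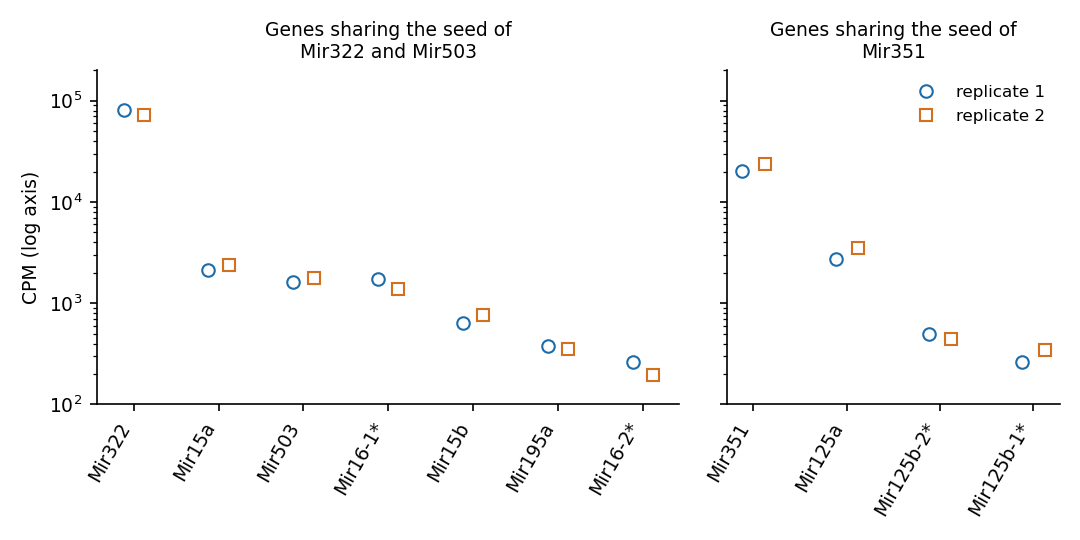
Level in CPM (log axis) of the counted genes that share bases 2 to 7 of a mature sequence with Mir322 and Mir503 (left) or with Mir351 (right), in replicate 1 (circles) and replicate 2 (squares); genes with 0 counts are left out and an asterisk marks a gene that shares 20 bases with another hairpin. Mir322 and Mir351 each stand well above the next gene, Mir15a and Mir125a.

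The genes nearest to each member in level, by Euclidean distance of log2(CPM + 0.5) over the 2 libraries, lay on other chromosomes. Nearest to Mir322 was Mir126a, the endothelial miRNA of the Egfl7 gene, at 79217 and 67775 CPM (distance 0.104). The second nearest was the smooth muscle miRNA Mir143, at 85423 ± 4199 CPM (0.286). Nearest to Mir351 was Mir23a, at 20561 and 23533 CPM (distance 0.0303), which shares 20 bases with Mir23b. Mir381 was nearest to Mir503 (distance 0.0999), Mir181c to Mir542 (0.136) and Mir210, a miRNA induced by low oxygen, to Mir450b (0.0734). With 2 libraries of 1 tissue this likeness is one of levels only.

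Most X-linked miRNA counts came from the cluster. Of 120 annotated miRNA genes of chromosome X, 36 were detected, and the 5 members held 78.7% of their counts in replicate 1 and 76.0% in replicate 2. The highest other gene of the chromosome was Mir652, at 11098 ± 1153 CPM, below Mir322 and Mir351 and above the other 3 members. The 1894 counted genes found in GENCODE M21 were also grouped into 1584 runs, joining genes of 1 strand whose starts lie at most 10 kb apart. The run that holds the cluster had the highest sum, 106361 and 101384 CPM with Mir450-1 and Mir450-2. This order too leaves out multiply matching reads, and runs that hold genes with several copies can rank too low. The next was Mir335 alone, at 97894 and 96040 CPM. Of 7 runs with at least 5 detected genes, the log2 span from the highest to the lowest detected gene was 11.1 here and 11.7 in the Mir17-92 run, with a median of 7.94. The lowest genes here are Mir450-1 and Mir450-2, whose counts can fall short.

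Between the libraries most members differed by more than counting noise, as did many other genes. Replicate 1 held 3439539 counts on the gene's strand and replicate 2 held 5833156. Each of 413 genes with at least 10 summed counts was compared by an exact two-sided binomial test at library sizes scaled with TMM (a trimmed mean of log ratios), adjusted by Benjamini-Hochberg over all of them. This sets a difference against counting noise alone, so a call says that the libraries differ and not why. Of all tested genes 46.5% had an adjusted p under 0.05 and are called different here, 21.8% with more in replicate 1 and 24.7% with more in replicate 2. Of the 5 members 4 were called, Mir322, Mir542 and Mir450b with more in replicate 1 and Mir351 with more in replicate 2. Their median log2 ratio was 0.25, against -0.04 over all tested genes. Genes at the level of Mir322 had ratios above 0 too, 0.20 for Mir335, 0.07 for Mir143 and 0.40 for Mir126a. Among 251 genes with a mean of at least 100 counts, the kind the members belong to, 69.7% were called, so 4 of 5 is close to the background.

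The log2 ratio of replicate 1 to replicate 2 was 0.33 for Mir322, with an adjusted p below the smallest number that the software can hold. It was 0.40 for Mir450b (exact test, adjusted p = 1.97e-26) and 0.25 for Mir542 (exact test, adjusted p = 7.30e-34), whose call is lost when libraries are scaled by all their reads. Mir351 was slightly higher in replicate 2, at -0.06 (exact test, adjusted p = 2.06e-21). Mir503 had 0.03 (exact test, adjusted p = 0.355), and its sign turns with the scaling, to -0.14 by total counts, where it was called, while by DESeq2 size factors it was called in the other direction at 0.068. TMM scaling raises every ratio by 0.173 over total counts, and under total counts 23.6% of calls were higher in replicate 1, against 46.9% here. The median absolute log2 ratio of the 251 well counted genes was 0.219, between Mir351 and Mir542. Mir322 exceeded 165 of these genes in absolute ratio and Mir450b 178.

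**Figure D4:**
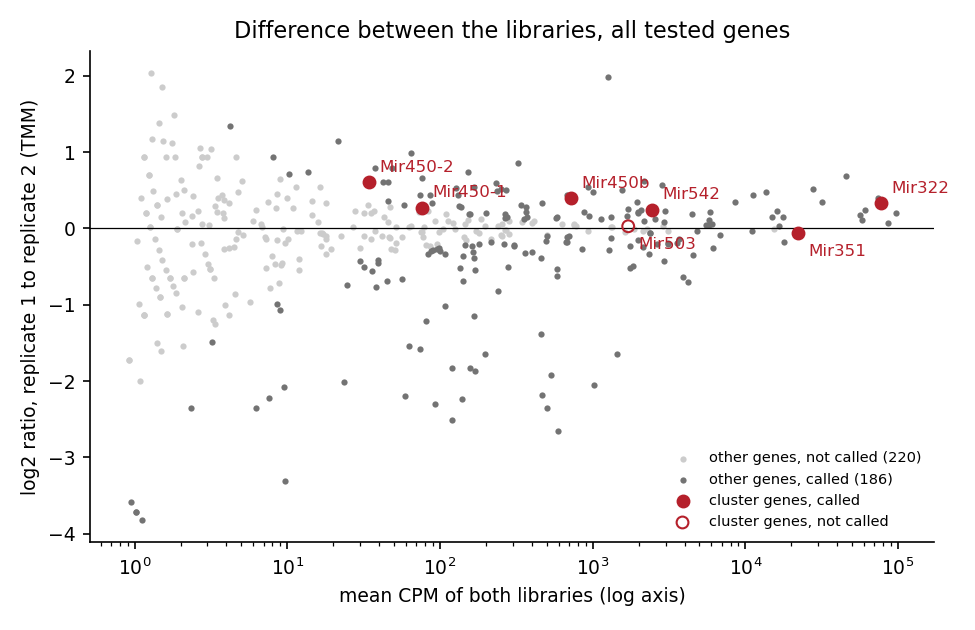
Log2 ratio of replicate 1 to replicate 2 after TMM scaling against mean CPM (log axis) for the 413 tested miRNA genes; grey points are other genes (dark where called) and red points the 7 genes of the cluster (filled where called). The cluster's genes lie between -0.06 and 0.61, and Mir503 is the 1 that was not called.

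Relatives and other X-linked genes are given by counts beside the median over all tested genes, -0.04. Of 5 tested genes of the Mir15 and Mir16 list, 3 had more in replicate 1 and 1 more in replicate 2 (median log2 ratio 0.27), and their sum was 5142 and 5099 CPM. In the Mir125 list, which includes Mir351, it was 1 and 3 of 4 (median -0.13). The other genes of chromosome X, which include the Mir106a-363 cluster, had 8 and 12 called of 33 tested (median -0.05). For replicate 1 this is close to the share over all tested genes, 21.8%, and for replicate 2 it is above theirs, 24.7%. Of the 12 with more in replicate 2, 5 belong to the Mir106a-363 cluster, which is 1 locus, so the higher share is not one of the chromosome at large. The Mir106a-363 cluster, also on this chromosome, had 0 called higher in replicate 1 and 5 of 6 in replicate 2 (median -1.68), with summed levels of 160 and 726 CPM. Its paralogue Mir17-92 had 2 and 1 of 6 (median -0.07).

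Heart muscle markers were present, and markers of several cell types differed between the pools. Their calls stand beside 46.5% called of all tested genes and 69.7% of the well counted ones. The heart muscle miRNAs Mir208a, Mir208b and Mir499, which lie in myosin genes, are markers with a count of their own, while Mir1a and Mir133a copies are in no list. They added up to 62341 CPM in replicate 1 against 45466 in replicate 2, and 3 of 3 were called with more in replicate 1. Mir208b had 53878 and 37837 CPM and Mir499 2492 and 1829 CPM. Mir208a was nearly equal in CPM, at 5972 and 5801, and 0.173 of its log2 ratio of 0.215 comes from TMM scaling. Endothelial Mir126a had more in replicate 1 too (log2 ratio 0.40). Smooth muscle Mir143 and Mir145a had more in replicate 1 after scaling (2 of 2 called, median log2 ratio 0.28), with unscaled sums of 83564 and 89291 CPM, in which Mir143 was lower in replicate 1 (82454 against 88393 CPM). The erythroid list (Mir451a, Mir144, Mir486) held 2457 and 1095 CPM, with 1 called in each direction. Its sum follows Mir451a, at 1975 and 564 CPM, while Mir144 (401 and 422 CPM) and Mir486 (80.8 and 110 CPM) were higher in replicate 2. The leukocyte list held 352 and 491 CPM (1 of 2 called, more in replicate 2) and the skeletal muscle list 75.6 and 104 CPM (1 of 2, more in replicate 2). In the latter nearly all counts are of Mir206. Mir133b had 8 and 14 counts and shares 20 bases with Mir133a-1 and Mir133a-2, so its counts can fall short.

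Epithelial and liver markers were lower in sum than those of heart muscle. The 7 epithelial miRNAs held 1821 and 6297 CPM, with 7 of 7 called with more in replicate 2 and none at 0, and the liver miRNA Mir122 held 87.2 and 309 CPM. Of 5 neural markers only Mir9-3 had counts, 1 and 9, but all 5 share 20 bases with another hairpin, so their low counts do not show that these miRNAs were low. Mir137, a miRNA of neurons that shares no such stretch and is in no list, had 152 and 1366 counts. It is named here after its values were seen. The part of any of these cells in the members' differences was not tested.

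Ratios within the cluster need no scaling between libraries, and they differed as well. All 10 pairs of members were compared by Fisher's exact test of their counts in both libraries, two-sided and adjusted over the 10 pairs. These pairs are built from the counts of only 5 members, so they are not independent results. Of the 10 pairs, 9 passed. Pairs of other genes were not compared, so this number has no background share beside it. The log2 ratios of replicate 1 to 2 of the detected genes in the cluster's run, Mir450-1 and Mir450-2 included, spanned 0.67. This was rank 4 among the 7 runs with at least 5 detected genes, so this run itself sets their median. The span runs from Mir351 at -0.06 to the neighbour Mir450-2 at 0.61, which had 136 and 171 counts. Among the 5 members alone the highest ratio was 0.40, that of Mir450b. Differences are given as the log2 ratio in replicate 1 minus that in replicate 2, with exact 95% intervals of counting error. Mir351 to Mir450b differed most, at 26.0 in replicate 1 and 35.8 in replicate 2, a log2 difference of -0.46 (-0.53 to -0.39, Fisher's exact test, adjusted p = 1.09e-34). Mir322 to Mir351 was 3.04 in replicate 2 and lay between 3.97 and 4.03 in replicate 1 (exact 95% interval), a difference of 0.40 (0.38 to 0.41) whose p was too small to be held. Mir322 to Mir503 differed by 0.31 (0.26 to 0.35, Fisher's exact test, adjusted p = 1.19e-36).

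By this measure the members can be put into 2 sets, though the sets are not fully apart. Mir503 and Mir351, which lie next to each other, form 1 set and the members on both sides of them the other. Mir322, Mir542 and Mir450b had ratios to each other that moved little, with differences of 0.09 (0.05 to 0.13) for Mir322 to Mir542 and -0.15 (-0.23 to -0.07) for Mir542 to Mir450b. For Mir322 to Mir450b the difference was -0.06 (-0.13 to 0.01, Fisher's exact test, adjusted p = 0.0897), the only pair that did not pass. Mir503 to Mir351 differed by 0.09 (0.04 to 0.14). Each pair across these sets differed by at least 0.22 in absolute value, the smallest being Mir503 to Mir542 at -0.22 (-0.28 to -0.16). That interval overlaps the one of Mir542 to Mir450b, a pair within a set. Between Mir351 and Mir542 it was -0.31 (-0.35 to -0.27) and between Mir503 and Mir450b -0.37 (-0.45 to -0.28). The sets were named after the values were seen, rest on 1 comparison of 2 pools, and carry no test of their own.

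**Figure D5:**
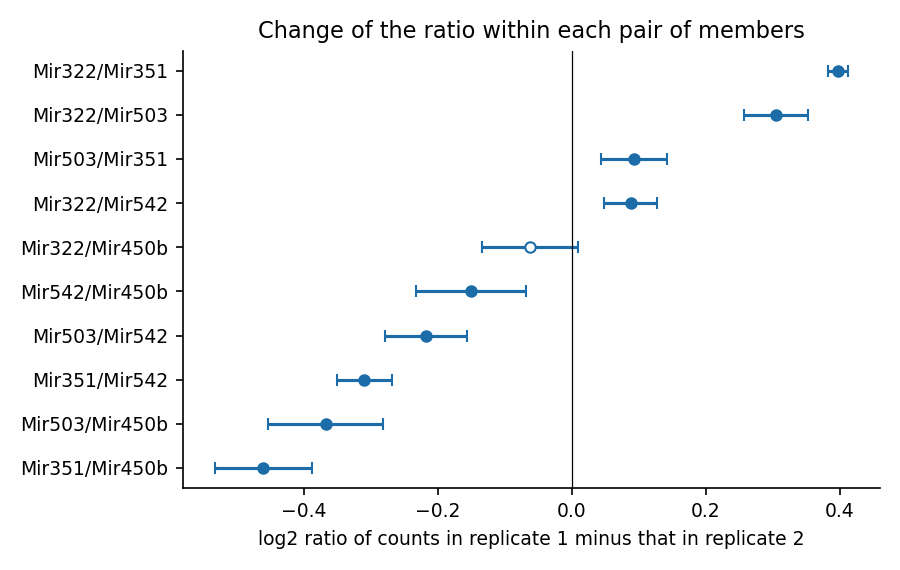
Log2 ratio of counts in replicate 1 minus that in replicate 2 for the 10 pairs of members, with exact 95% intervals of counting error; filled points passed Fisher's exact test after adjustment. Values run from -0.46 for Mir351 to Mir450b to 0.40 for Mir322 to Mir351, and Mir322 to Mir450b is the open point.

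No read was counted opposite a member. Each of the 7 genes of the cluster had 0 counts on the opposite strand in both libraries, which allows up to 3 counts each. Over all genes, the opposite strand held 5.73% of the counts of both strands in replicate 1 and 4.88% in replicate 2, from 42 and 50 genes.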

How the data were processed

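Small RNA libraries of 1 group, 2 in all, were studied through deposited count tables. Per the text files deposited with them, the build was mm10 and the annotation GENCODE M4. How reads were trimmed, aligned and counted is not given in the sources used here. These values, as the authors deposited them, are whole read counts per miRNA gene, without normalization, in 3 columns that the values show to be either strand, the gene's strand (used here) and the opposite strand. Multiply matching reads (33.0% of reads in replicate 1, 30.1% in replicate 2), unmapped reads (13.1%, 15.1%) and reads on no gene (5.11%, 5.07%) are in no gene count. Symbols and positions came from GENCODE M21 (1894 of 1973 IDs), sequences from RefSeq. One count is 0.291 CPM in replicate 1 and 0.171 in replicate 2.

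TMM factors (0.942, 1.06) came from edgeR 4.0.16 and size factors from DESeq2 1.42.0 under R 4.3.3; tests used scipy 1.17.1 in Python 3.11.15 and were tested on simulated data. The members and lists were chosen with earlier results of these data known. Named were the members, their neighbours, genes sharing a seed, the lists (at most 4 leading genes each, with all seed relatives) and the nearest genes in level. Alternatives were other scalings, filters, strand columns, pseudocounts and single libraries. The replicates are separate pools, so the spread is one between pools.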

Additional observations from a re-analysis of the deposited data

How the results depend on the processing

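By total counts the log2 ratio of replicate 1 to 2 of Mir503 turned to -0.14 and by all reads of the library to -0.17, while by DESeq2 size factors it was 0.068 and was called. By all reads Mir542 had 0.044 and was no longer called. Mir450-1 was not called by total counts (0.10) or all reads (0.072). By total counts 48 genes were called higher in replicate 1 and 155 in replicate 2, and by all reads 39 and 166, against 90 and 102 with TMM; the scalings differ by a constant, 0.173 and 0.201 on the log2 scale. Of all calls 46.9% were higher in replicate 1 with TMM, 23.6% by total counts, 19.0% by all reads and 54.3% by DESeq2 size factors. With counts regardless of strand the level of Mir542 was 2310 CPM and the sum of the members 98245 CPM, since the total grows by the opposite strand. With 2 libraries, leaving out 1 gives the value of the other, printed above, which by construction lies within 1 SD of the mean, so it says nothing of stability and allows no comparison of libraries. Ratios within pairs are the same regardless of strand because no read lies opposite a member. No paired analysis was possible because there is 1 group. Depth did not limit the members, the lowest of which had 2679 counts in replicate 1.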
